A study of Homo sapiens with 8 samples.

Results

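The genes described here are 10 negative feedback regulators of receptor tyrosine kinase and ERK signalling: SPRY1, SPRY2 and SPRY4 of the Sprouty family, SPRED1, SPRED2 and SPRED3 of the SPRED family, and the MAP kinase phosphatases DUSP4, DUSP5, DUSP6 and DUSP7. Members were taken by gene symbol, and all 10 were found among the 19472 genes of the crowding table and the 19551 genes of the ETV4 knockdown table. Transcripts were measured by RNA-seq in H9 (WiCell WA09), an established human embryonic stem cell (hESC) line, in 8 libraries of 4 groups with 2 libraries each. The crowding experiment compared low-density cultures, labelled small, with crowded cultures, in which cells could attach only to small Matrigel-coated areas. The knockdown experiment compared cells labelled Ctrl with cells labelled ETV4 KD, in which a short hairpin RNA lowers ETV4, an ETS transcription factor of the PEA3 group. All groups were H9 cells grown on Matrigel in mTeSR1 or TeSR-E8, and the labels give neither which hairpin was used nor whether libraries of a group came from separate cultures. The p-values therefore measure the spread between these libraries, which may be technical.

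Signals from FGF receptors and other receptor tyrosine kinases pass through RAS, RAF and MEK to ERK, and active ERK in turn switches on genes that dampen the pathway. Sprouty proteins interfere with signalling between the receptor and RAF, SPRED proteins bring neurofibromin to RAS at the membrane, and DUSP phosphatases remove the activating phosphates from ERK itself. hESCs are grown with FGF2 in the medium, so this cascade is in use in the undifferentiated state.

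In crowded hESCs DUSP6, DUSP5 and SPRY4 transcripts fell, against 5.47% of all genes, and no member rose, against 10.7%. With ETV4 KD the same genes, DUSP6, DUSP5 and SPRY4, fell, against 7.10% of all genes, while SPRED3 and DUSP4 rose, against 5.88%. DUSP6 had the largest fall of the 10 members in both experiments, by 1.67 on the log2 scale with crowding and by 0.97 with ETV4 KD. Its fall was larger with crowding than with ETV4 KD, and DUSP4, SPRED3 and SPRED2 also responded differently to the 2 conditions. A different response was called for 27.5% of all genes.

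The start of DUSP6 is shown because this gene had the largest fall of the members in both experiments. The window holds the 250 bases before the transcription start in RefSeq (GRCh38.p14), found by an exact match at chr12:89746279-89746528 of GRCh37, minus strand, and is written 5′ to 3′ with a match to the PEA3-type letters AGGAAG on the opposite strand in capitals.
DUSP6: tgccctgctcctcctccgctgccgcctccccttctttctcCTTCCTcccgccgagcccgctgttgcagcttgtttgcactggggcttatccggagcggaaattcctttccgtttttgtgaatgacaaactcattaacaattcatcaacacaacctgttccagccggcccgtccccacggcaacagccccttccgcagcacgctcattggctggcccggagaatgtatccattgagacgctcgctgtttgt
The window is 57.2% G and C, and all 250 bases also lie in an exon of an antisense lncRNA, ENSG00000274021. Short sets of letters were searched on both strands: CCGGAAG, a site of ETS factors, AGGAAG, which shares the core GGAAG with it, TGANTCA, a site of AP-1, and TGACGT, found in sites of CREB. RefSeq windows were given for 8 of the 10 members, all but DUSP4 and DUSP5, with 13 windows in all. AGGAAG occurred in 9 of the 13 windows, against 28.7% of the 35116 windows of all genes. By gene it occurred in 6 of the 8 members, some of which have more than 1 window. No share by gene was counted over all genes. CCGGAAG occurred in 1 window, of SPRY1, against 8.52% of all windows, TGANTCA in 1 window, of SPRED3, against 6.57%, and TGACGT in 0, against 7.10%. The SPRY4 window held none of the searched letters. That window, at chr5:141703813-141704062 of GRCh37, lies inside the gene span given below, and 170 of its 250 bases lie in SPRY4 exons. These matches describe the letters in the windows and were not tested as sites.

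The libraries held 50359703 and 59957148 counts at low density, 55365694 and 62410168 in crowded cells, 55028105 and 52155822 in Ctrl cells, and 56630652 and 52790532 in ETV4 KD cells. The members were counted at 136 reads (SPRED3 in Ctrl replicate 2) to 24120 reads (SPRY4 in Ctrl replicate 1) per library, and all 10 passed the filter on low counts in both experiments. Levels below are FPKM, read fragments scaled to the length of the transcript and to the mapped depth of the library, and can be compared between genes. Changes are log2 fold changes ± SE from edgeR's quasi-likelihood test on the counts, with adjusted p-values from the Benjamini-Hochberg method over 17672 genes for crowding and 17879 for ETV4 KD. A DEG is a gene that passes an adjusted p of 0.05 with a log2 fold change of more than 0.5 in size, and a gene is said to rise or fall when it passes both. With 2 libraries in each group a permutation test of a single gene cannot give a two-sided p below 0.333, so the tests rest on variation estimated across genes. In bulk RNA, fewer cells that express a gene and less RNA per cell cannot be told apart.

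The cells carried the transcripts that define hESCs in every library. All 10 hESC markers were in both tables, led by POU5F1 at 1045 to 1158 FPKM in the crowding experiment and 1016 to 1405 FPKM in the knockdown experiment. SOX2, a core pluripotency factor, stood at 90.3 to 131 FPKM. With crowding 0 of the 10 were called by edgeR, DESeq2 or limma on log2(FPKM + 0.5), against 16.1% of all genes in edgeR. At the adjusted p alone 3 were lower, against 20.3%, and 4 higher, against 19.4%, the same counts as at an unadjusted p below 0.05. With ETV4 KD 2 fell, against 7.10% of all genes, and 1 rose, against 5.88%. TDGF1, a NODAL co-receptor, fell from 333 and 340 FPKM to 195 and 184 FPKM, and DNMT3B, a DNA methyltransferase, fell from 354 and 359 FPKM to 212 and 192 FPKM, each by 0.82 on the log2 scale. LIN28A, an RNA-binding pluripotency factor, rose from 344 and 349 FPKM to 504 and 480 FPKM, by 0.51. NANOG, a further core factor, had log2 fold changes of -0.46 with crowding and -0.44 with ETV4 KD, which passed the adjusted p (edgeR, 3.36e-06 and 0.0165) but not the minimum fold. It was called in 1 of 14 alternatives in each experiment. When 1 library was left out it reached -0.52 with crowding and -0.58 with ETV4 KD.

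Markers of other lineages were checked as well. The neuroectoderm list summed to 95.1 and 94.9 FPKM at low density, 81.7 and 70.5 in crowded cells, 48.5 and 55.4 in Ctrl and 76.8 and 86.7 in ETV4 KD. Most of this was NES, an intermediate filament that hESCs also express, at 43.9 to 78.1 FPKM, whereas the neural factor SOX1 reached at most 0.0665 FPKM in any library. With ETV4 KD 1 of the 5 genes tested rose and 0 fell, against 5.88% and 7.10% of all genes. OTX2, a homeobox gene of anterior neural and pluripotent cells, rose there from 2.50 and 2.81 FPKM to 16.0 and 19.3 FPKM. With crowding OTX2 went from 10.7 and 11.2 FPKM to 18.2 and 13.4 FPKM. Its log2 fold change of 0.47 was not called (edgeR, adjusted p = 0.0551). It was called in 3 of 14 alternatives and ranged from 0.23 to 0.68 when 1 library was left out.

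With crowding 2 of the 7 neuroectoderm genes tested fell and 1 rose, against 5.47% and 10.7% of all genes. NES fell from 78.1 and 76.7 FPKM to 56.7 and 53.0 FPKM, by 0.55 on the log2 scale (edgeR, adjusted p = 8.08e-08), a call that was lost in 6 of 14 alternatives, among them limma with each pseudocount and without crowded replicate 2, at -0.50. The other calls rested on few counts. LHX2, a homeobox gene, fell from 17 and 18 counts to 6 and 7, by 1.55 on the log2 scale (edgeR, adjusted p = 0.0266), and this was lost without any 1 of the 4 libraries. SOX1 rose from 3 and 4 counts to 20 and 18, by 2.27 (edgeR, adjusted p = 0.00548), and this was lost in limma on log2(FPKM + 0.5) over all genes. DESeq2 gave no adjusted p for either.

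The lists of mesendoderm, definitive endoderm, and amnion and trophoblast summed to at most 4.67, 0.441 and 3.44 FPKM in any library. TBXT, which defines mesendoderm, reached at most 0.0911 FPKM. CER1, a secreted antagonist made by mesendoderm and the most abundant of its list in most libraries, fell with crowding from 3.24 and 3.82 FPKM to 0.443 and 0.189 FPKM, and with ETV4 KD from 1.74 and 2.46 FPKM to 0.688 and 1.26 FPKM. The fall with ETV4 KD (edgeR, adjusted p = 0.0480) was lost in 5 of 14 alternatives, among them without Ctrl replicate 2, at -0.83, and without ETV4 KD replicate 1, at -0.69. HHEX, a homeobox gene of the same list, rose with crowding from 0.0543 and 0.156 FPKM to 0.677 and 0.690 FPKM, and was the most abundant of the list in both crowded libraries. These were the only calls of edgeR in the mesendoderm list. With crowding 1 of the 5 genes tested rose and 1 fell, against 10.7% and 5.47% of all genes. With ETV4 KD 0 of the 4 tested rose and 1 fell, against 5.88% and 7.10%.

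Of the definitive endoderm list 2 genes could be tested in each experiment, all below 0.3 FPKM in every library. With crowding both fell, against 5.47% of all genes. FOXA2, a forkhead factor, fell from 26 and 48 counts to 4 and 7, by 2.85 on the log2 scale (edgeR, adjusted p = 1.32e-04), a call lost in 1 of 10 alternatives, limma over all genes. PRDM1, a transcriptional repressor, fell from 30 and 38 counts to 15 and 16, by 1.26 (edgeR, adjusted p = 0.0166), a call lost in 6 of 11 alternatives, among them DESeq2, without crowded replicate 2 and without either small library. With ETV4 KD 1 of the 2 rose, against 5.88%. This was GATA4, a zinc finger factor, which went from 10 and 15 counts to 42 and 41, by 1.73 (edgeR, adjusted p = 0.0209), and the call was lost in 3 of 11 alternatives, among them without Ctrl replicate 1, at 1.43. Of the 3 amnion and trophoblast genes tested in each experiment edgeR and DESeq2 called 0. In edgeR 16.1% of all genes were called with crowding and 13.0% with ETV4 KD. At an unadjusted p below 0.05 in edgeR 1, KRT7, was higher with crowding.

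The mesenchymal list summed to 115.0 and 117.2 FPKM at low density, 83.6 and 84.3 in crowded cells, 152.9 and 155.7 in Ctrl and 126.0 and 116.9 in ETV4 KD. It was led by THY1, which hESCs also express, at 52.9 to 119 FPKM, and THY1 fell in both experiments. COL1A1, a collagen chain of the same list, rose with ETV4 KD from 21.5 and 22.4 FPKM to 44.9 and 42.8 FPKM, by 1.00 on the log2 scale, and its change with crowding was -0.44. COL1A2, another collagen chain, went the other way with ETV4 KD, from 12.9 and 14.0 FPKM to 10.4 and 8.63 FPKM. Its log2 fold change of -0.496 passed the adjusted p (edgeR, 0.0101) but not the minimum fold. Of the 5 genes tested with ETV4 KD 1 rose and 1 fell, against 5.88% and 7.10% of all genes. Of the 4 tested with crowding 0 rose and 1 fell, against 10.7% and 5.47%. The part of all these markers in the changes of the feedback genes was not tested.

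Per length, SPRY4 was the most abundant member in all 4 groups and SPRED3 the least. At low density the order was SPRY4 at 47.5 ± 0.214 FPKM (SD, n = 2), DUSP6 at 38.7 ± 1.46, SPRY2 at 14.6 ± 0.629, DUSP5 at 12.7 ± 0.606, SPRY1 at 8.57 ± 0.305, SPRED1 at 8.19 ± 0.168, DUSP7 at 6.73 ± 0.103, SPRED2 at 5.05 ± 0.190, DUSP4 at 2.82 ± 0.118 and SPRED3 at 0.790 ± 0.140. No neighbours in that order overlapped in their libraries. In crowded cells DUSP6, at 12.7 ± 1.17 FPKM, overlapped with SPRY2 at 12.2 ± 0.137. The libraries of SPRY1 and DUSP5, of DUSP5 and SPRED1, and of SPRED2 and DUSP7 overlapped there as well. Ctrl cells kept the low-density order of all 10 members, with SPRY4 at 75.5 ± 4.12 FPKM and DUSP6 at 37.5 ± 1.34, a comparison across separately normalized tables that was not tested. With ETV4 KD, DUSP6 at 19.1 ± 1.46 FPKM overlapped with SPRY2 at 18.5 ± 2.36, and DUSP7 overlapped with SPRY1.

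**Figure D1:**
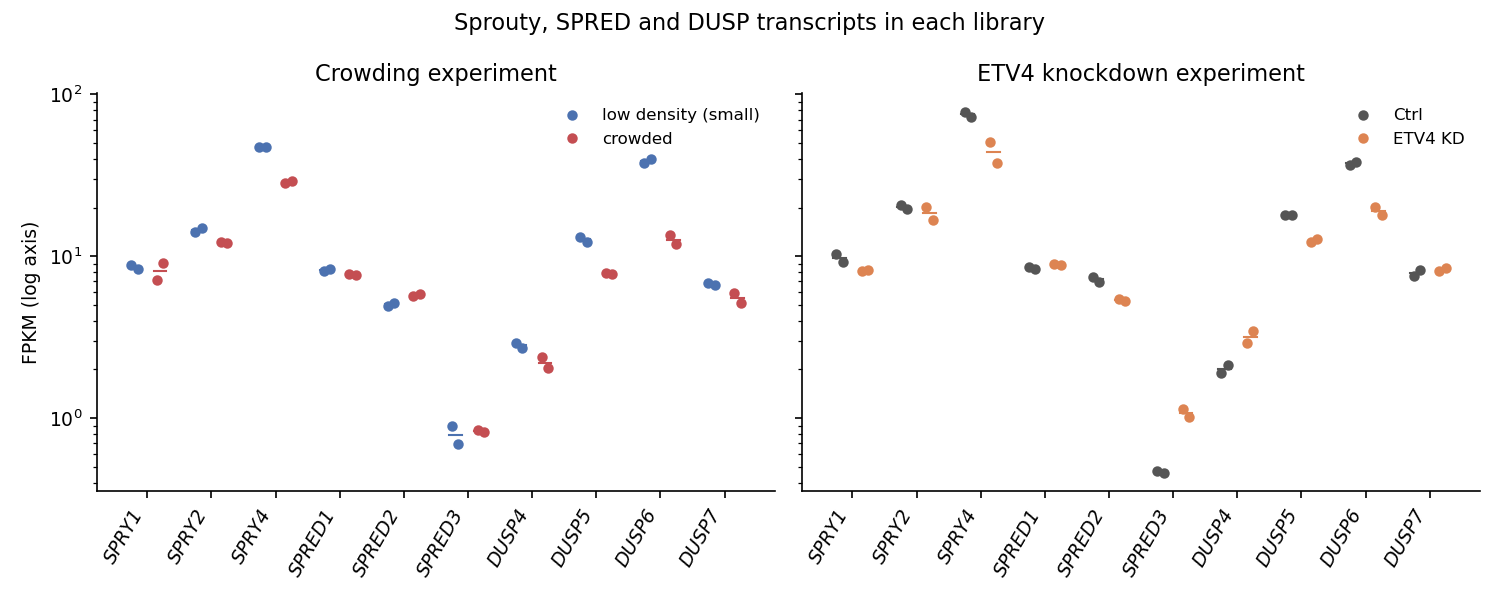
FPKM (log axis) of the 10 feedback transcripts in each library of the crowding experiment (left) and the ETV4 knockdown experiment (right). Points are libraries, 2 per group, and lines are group means; SPRY4, DUSP5 and DUSP6 lie lower in both crowded libraries and in both ETV4 KD libraries, and SPRED3 and DUSP4 lie higher in ETV4 KD than in Ctrl.

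In crowded cells 3 of the 10 members fell, against 5.47% of all genes tested, and 0 rose, against 10.7%, where 16.1% of all genes were called in either direction. The count of 0 was the same in DESeq2 and limma, and in edgeR 0 were higher at an unadjusted p below 0.05. At an adjusted p below 0.05 without the minimum fold, 6 of the 10 were lower, against 20.3% of all genes, and 0 were higher, against 19.4%. The libraries did not overlap and were lower in crowded cells for 7 members, against 29.0% of all genes, and higher for 1, SPRED2, against 41.2%. The median log2 fold change of the members was -0.36, against 0.0032 for all genes. Summed over the 10 members, the level was 144.7 and 146.7 FPKM at low density and 91.7 and 91.6 FPKM in crowded cells.

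With ETV4 KD 3 members fell, against 7.10% of all genes tested, and 2 rose, against 5.88%, where 13.0% of all genes were called in either direction. At the adjusted p alone 4 were lower, against 10.9%, and 2 were higher, against 10.6%. The libraries did not overlap and were lower for 5 members, against 31.5% of all genes, and higher for 3, against 31.8%, which is near the background. The median log2 fold change of the members was -0.19, against -0.0012 for all genes. Summed over the members, the level was 190.2 and 184.0 FPKM in Ctrl and 138.2 and 120.4 FPKM in ETV4 KD.

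**Figure D2:**
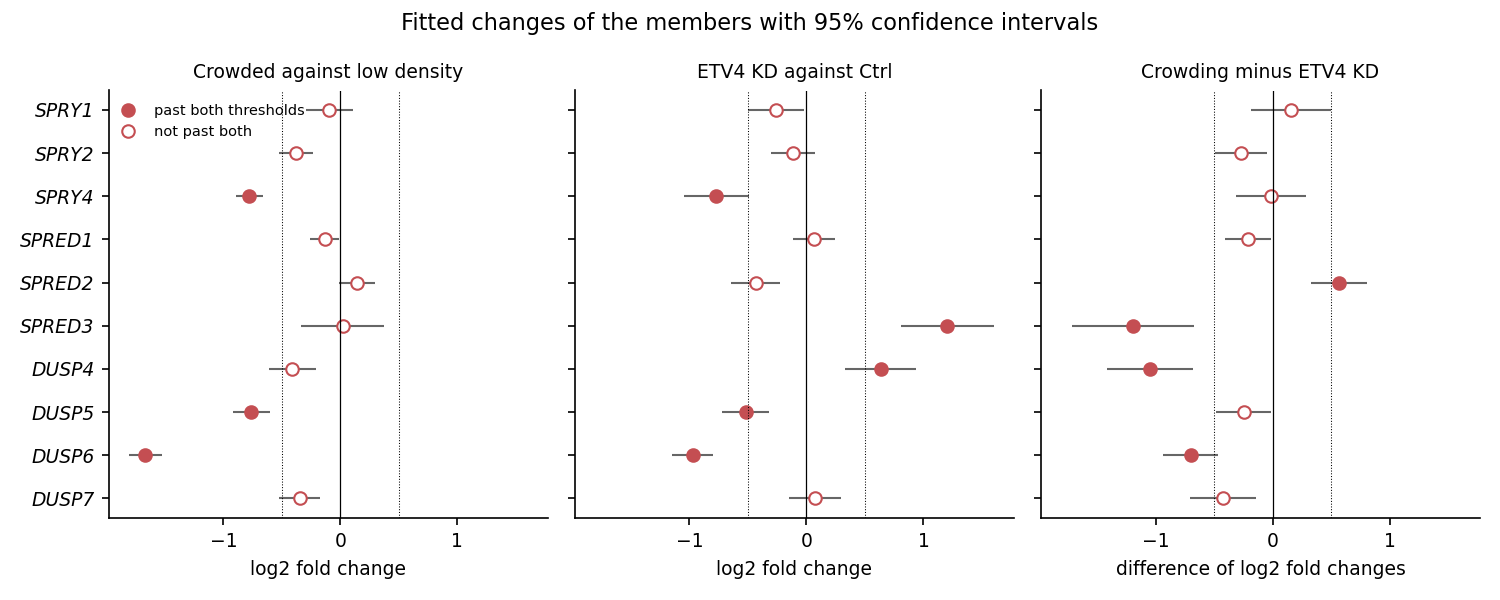
Log2 fold change of each member with crowding (left) and with ETV4 KD (middle), and the difference of both (right), with 95% confidence intervals. Filled points passed the adjusted p of 0.05 and lie beyond 0.5 in size (dotted lines); DUSP6 is the lowest of the members in the left and middle panels, and SPRED3 is the highest in the middle panel.

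Of the 3 Sprouty genes among the members SPRY4 fell in both experiments. The remaining gene of the family, SPRY3, was not a member. At the low level of 0.242 and 0.347 FPKM at low density and 0.430 and 0.483 FPKM in crowded cells it rose, by 0.57 on the log2 scale (edgeR, adjusted p = 0.0213). That call was lost in 4 of 11 alternatives, among them without crowded replicate 2, at 0.49, and without small replicate 1, at 0.35. With ETV4 KD its libraries overlapped.

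SPRY4 (GRCh37 chr5:141689992-141706020, minus strand) stood at 47.4 and 47.7 FPKM at low density and at 28.3 and 29.3 FPKM in crowded cells. The groups were far apart beside the spread of their libraries. Its log2 fold change was -0.78 ± 0.06, a 1.71-fold lower level (edgeR, adjusted p = 1.15e-09).

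In the knockdown experiment SPRY4 was at 78.4 and 72.6 FPKM in Ctrl and at 51.1 and 37.5 FPKM in ETV4 KD. The groups did not overlap, and for this gene the ETV4 KD libraries differed from each other more than those of the other groups. The log2 fold change was -0.77 ± 0.12 (edgeR, adjusted p = 0.00494). A stricter test, edgeR's glmTreat for a change beyond 0.5, did not call it (adjusted p = 0.155). An antisense lncRNA, SPRY4-AS1, overlaps the gene, and the strand setting of the counting is not given in the sources used here.

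The other Sprouty genes moved less. SPRY2 (chr13:80910111-80915261, minus strand), a widely expressed inhibitor of FGF signalling, stood at 14.2 and 15.0 FPKM at low density and at 12.3 and 12.1 FPKM in crowded cells. Its log2 fold change of -0.38 ± 0.07 passed the adjusted p (edgeR, 2.67e-04) but not the minimum fold. With ETV4 KD its libraries overlapped those of Ctrl, at 20.2 and 16.8 FPKM against 20.7 and 19.6 FPKM, and the log2 fold change was -0.11 ± 0.08 (edgeR, adjusted p = 0.341).

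SPRY1 (chr4:124317950-124324915, plus strand), a further inhibitor of the same family, overlapped between densities. It stood at 8.79 and 8.36 FPKM at low density and at 7.12 and 9.05 FPKM in crowded cells, and its log2 fold change of -0.09 ± 0.10 turned to 0.07 without crowded replicate 1. In Ctrl it was at 10.3 and 9.28 FPKM and in ETV4 KD at 8.07 and 8.21 FPKM, lower in both knockdown libraries. The change, -0.26 ± 0.10, did not pass the test (edgeR, adjusted p = 0.111).

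The SPRED genes were not called with crowding. SPRED1 (chr15:38545037-38649450, plus strand), the member mutated in Legius syndrome, stood at 8.07 and 8.31 FPKM at low density and at 7.80 and 7.72 FPKM in crowded cells, with a log2 fold change of -0.14 ± 0.06 (edgeR, adjusted p = 0.0704). With ETV4 KD its change was 0.07 ± 0.08 (edgeR, adjusted p = 0.580), from 8.64 and 8.38 FPKM to 8.92 and 8.85 FPKM. Over all 8 libraries it ranged from 7.72 to 8.92 FPKM.

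SPRED2 (chr2:65537985-65659771, minus strand), a close relative of SPRED1, pointed in opposite directions in the experiments. It stood at 4.91 and 5.18 FPKM at low density and at 5.72 and 5.89 FPKM in crowded cells, a log2 fold change of 0.14 ± 0.07 that did not pass the test (edgeR, adjusted p = 0.134). In Ctrl it was at 7.51 and 6.98 FPKM and in ETV4 KD at 5.47 and 5.28 FPKM. The groups of both experiments did not overlap, and the change with ETV4 KD, -0.43 ± 0.09, passed the adjusted p (edgeR, 0.0146) but not the minimum fold.

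SPRED3 (chr19:38879061-38890227, plus strand), the least abundant SPRED gene, rose with ETV4 KD. It stood at 0.473 and 0.458 FPKM in Ctrl, from 151 and 136 reads, and at 1.14 and 1.02 FPKM in ETV4 KD, from 354 and 302 reads. Both knockdown libraries lay well above both Ctrl libraries. The log2 fold change was 1.20 ± 0.17, a 2.30-fold higher level (edgeR, adjusted p = 0.00357). The call held in all 14 alternatives, where the change lay between 0.505, just past the minimum fold, and 1.26. With crowding the libraries overlapped, at 0.889 and 0.691 FPKM at low density and 0.844 and 0.822 FPKM in crowded cells. The change of 0.02 ± 0.17 (edgeR, adjusted p = 0.942) turned to -0.15 without small replicate 2.

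SPRED1 was the most abundant SPRED gene in every library. The summed level of the SPRED genes was 13.9 and 14.2 FPKM at low density and 14.4 and 14.4 FPKM in crowded cells. It was 16.6 and 15.8 FPKM in Ctrl and 15.5 and 15.2 FPKM in ETV4 KD. The Sprouty total moved with SPRY4, from 70.3 and 71.1 FPKM at low density to 47.7 and 50.5 FPKM in crowded cells, and from 109.5 and 101.5 FPKM in Ctrl to 79.4 and 62.5 FPKM in ETV4 KD.

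DUSP6 (chr12:89741012-89746278, minus strand) encodes a cytoplasmic phosphatase that is selective for ERK. At low density it stood at 37.7 and 39.7 FPKM, and in crowded cells at 13.5 and 11.8 FPKM. The highest crowded library lay far below the lowest low-density library. Its log2 fold change was -1.67 ± 0.07, a 3.18-fold lower level (edgeR, adjusted p = 4.66e-13).

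In the knockdown experiment DUSP6 was at 36.6 and 38.5 FPKM in Ctrl and at 20.1 and 18.0 FPKM in ETV4 KD. Again the groups did not overlap. The log2 fold change was -0.97 ± 0.08, a 1.96-fold lower level (edgeR, adjusted p = 3.42e-04). Over all alternative fits the change stayed between -1.77 and -1.54 with crowding and between -1.02 and -0.93 with ETV4 KD. An antisense lncRNA overlaps DUSP6 too.

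DUSP5 (chr10:112257665-112271291, plus strand) encodes a nuclear phosphatase that is selective for ERK. It stood at 13.2 and 12.3 FPKM at low density and at 7.87 and 7.75 FPKM in crowded cells. The groups did not overlap, and the log2 fold change was -0.76 ± 0.08, a 1.70-fold lower level (edgeR, adjusted p = 1.12e-07).

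With ETV4 KD, DUSP5 went from 18.0 and 17.9 FPKM in Ctrl to 12.2 and 12.8 FPKM. The libraries within each group were close together and the groups did not overlap. The log2 fold change was -0.52 ± 0.09 (edgeR, adjusted p = 0.00637), which lies just past the minimum fold. Without ETV4 KD replicate 1 it was -0.46, and in limma on log2(FPKM + 1) it was -0.49, so the call was lost in both. glmTreat did not call it either (adjusted p = 1.000).

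DUSP4 (chr8:29190581-29208201, minus strand) encodes a nuclear phosphatase that acts on ERK and also on JNK and p38. In the knockdown experiment it stood at 1.90 and 2.13 FPKM in Ctrl and at 2.92 and 3.46 FPKM in ETV4 KD. Both knockdown libraries were higher, and the log2 fold change was 0.63 ± 0.13 (edgeR, adjusted p = 0.0135). Without ETV4 KD replicate 2 the change was 0.47 and the call was lost, which left 1 of the 10 members as risen. The call was also lost in limma on log2(FPKM + 1), at 0.47, and in glmTreat (adjusted p = 0.546).

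With crowding DUSP4 was lower, at 2.37 and 2.04 FPKM against 2.90 and 2.73 FPKM at low density. The libraries did not overlap. Its log2 fold change of -0.41 ± 0.10 passed the adjusted p (edgeR, 0.00202) but not the minimum fold. Without crowded replicate 1 it was -0.53 and DUSP4 became the 4th member called as fallen.

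DUSP7 (chr3:52082935-52090587, minus strand), a cytoplasmic ERK phosphatase related to DUSP6, stood at 6.80 and 6.66 FPKM at low density and at 5.90 and 5.13 FPKM in crowded cells. Both crowded libraries were lower. The log2 fold change of -0.35 ± 0.08 passed the adjusted p (edgeR, 0.00252) but not the minimum fold. With ETV4 KD the libraries overlapped, at 8.08 and 8.50 FPKM against 7.60 and 8.22 FPKM in Ctrl, with a change of 0.07 ± 0.10 (edgeR, adjusted p = 0.624).

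The mix of the phosphatase transcripts shifted along with their sum. Summed FPKM of DUSP4, DUSP5, DUSP6 and DUSP7 was 60.5 and 61.4 at low density and 29.6 and 26.8 in crowded cells. DUSP6 made up 62.2% and 64.7% of that sum at low density and 45.5% and 44.2% in crowded cells. In Ctrl the sum was 64.1 and 66.7 FPKM, of which DUSP6 was 57.1% and 57.7%, and in ETV4 KD it was 43.3 and 42.7 FPKM, of which DUSP6 was 46.4% and 42.2%. DUSP6 was therefore the largest part of the summed level of these 4 genes in all 8 libraries. Its part was smaller in every crowded and every ETV4 KD library. DUSP16, which is not in the sum, stood at 12.9 FPKM in crowded replicate 2, above DUSP6 at 11.8 FPKM. These shares restate the fitted changes of the single genes and were not tested apart from them.

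**Figure D3:**
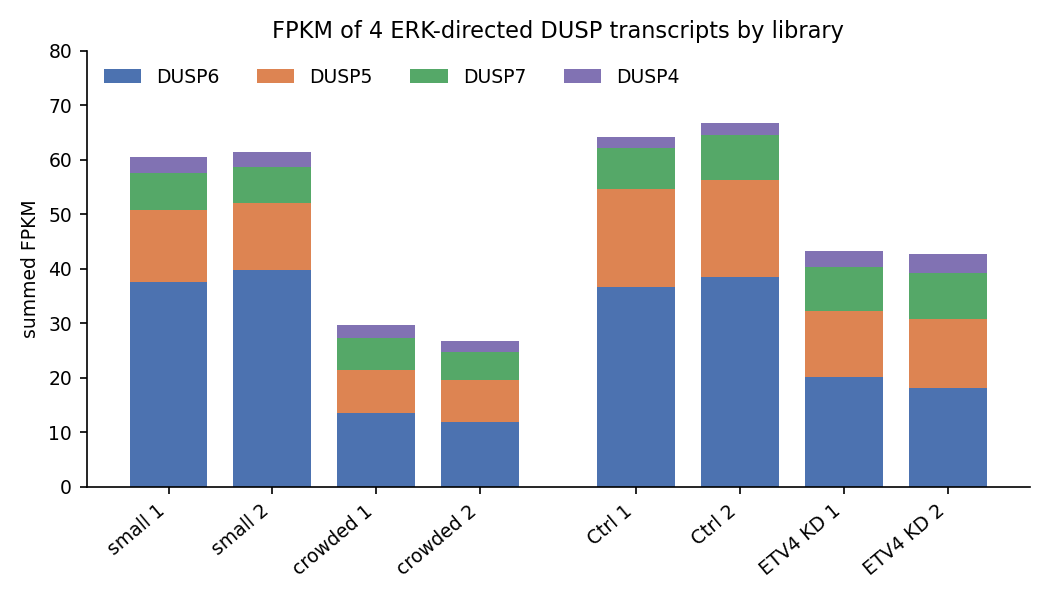
Summed FPKM of DUSP6, DUSP5, DUSP7 and DUSP4 in each of the 8 libraries, stacked by gene. The crowded bars reach 29.6 and 26.8 FPKM against 60.5 and 61.4 at low density, and the DUSP6 part shrinks most; the tables of both experiments were normalized separately.

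Whether the members responded differently to crowding and to ETV4 KD was tested as the difference of both log2 fold changes in 1 fit of all 8 libraries, over 17790 genes. The experiments share no libraries, and 27.5% of all genes tested were called, so a different response was common. Of the 10 members 4 were called. DUSP6 differed by -0.70 ± 0.11 (edgeR, adjusted p = 3.87e-04), as it fell further with crowding. DUSP4 differed by -1.05 ± 0.17 (edgeR, adjusted p = 5.49e-04) and SPRED3 by -1.19 ± 0.24 (edgeR, adjusted p = 0.00214), both of which had risen with ETV4 KD. SPRED2 differed in the other direction, by 0.57 ± 0.11 (edgeR, adjusted p = 0.00170). These 4 calls held when any 1 library was left out.

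The remaining members were not called. SPRY4 gave the smallest difference, -0.01 with a 95% confidence interval of -0.32 to 0.29, so its falls in the experiments could still differ by that much. DUSP5 differed by -0.25 (interval -0.49 to -0.01), SPRY2 by -0.27 (-0.50 to -0.05), SPRED1 by -0.21 (-0.41 to -0.01) and SPRY1 by 0.16 (-0.18 to 0.50). DUSP7 differed by -0.42 (-0.71 to -0.14) with an adjusted p of 0.0222 in edgeR, below the minimum of 0.5, and by -0.53 without crowded replicate 1, which made it the 5th member called.

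ETV4 itself, the target of the hairpin, was lower in both libraries labelled ETV4 KD. It stood at 90.8 and 95.1 FPKM in Ctrl and at 45.6 and 40.9 FPKM in ETV4 KD, a log2 fold change of -1.15 ± 0.07 (edgeR, adjusted p = 1.60e-04). In crowded cells it was at 54.2 and 53.9 FPKM against 73.2 and 72.6 FPKM at low density. That change, -0.49 ± 0.06, passed the adjusted p (edgeR, 9.42e-07) and missed the minimum fold.

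Of the other MAP kinase phosphatases DUSP1, DUSP2, DUSP8, DUSP9, DUSP10 and DUSP16, 1 rose and 1 fell with crowding, against 10.7% and 5.47% of all genes. With ETV4 KD 0 rose and 0 fell in edgeR, against 5.88% and 7.10%, and 1 was higher and 1 lower at an unadjusted p below 0.05. DESeq2 called 0 there too, and limma on log2(FPKM + 0.5) called 1, as higher. Their median log2 fold changes were 0.23 and -0.08. DUSP2, a nuclear phosphatase induced by mitogens, fell with crowding from 2.34 and 2.39 FPKM to 1.51 and 1.34 FPKM, by 0.79 on the log2 scale (edgeR, adjusted p = 0.00148). That call was lost in 2 of 14 alternatives, limma on log2(FPKM + 1), at -0.47, and glmTreat. DUSP8, a phosphatase of JNK and p38, rose with crowding from 0.554 and 0.483 FPKM to 0.953 and 0.812 FPKM, by 0.71, a call that was lost in 4 of 14 alternatives, among them limma on log2(FPKM + 1), at 0.31, and glmTreat. In ETV4 KD DUSP2 was at 2.53 and 2.85 FPKM against 1.49 and 2.04 FPKM in Ctrl, with a log2 fold change of 0.61 (edgeR, adjusted p = 0.0694). This change was called without Ctrl replicate 2, at 0.85, and without ETV4 KD replicate 1, at 0.73. The most abundant of these phosphatases, DUSP16, which acts mainly on JNK, was at 8.90 to 12.9 FPKM in all libraries and was not called.

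Of 14 other inhibitors of receptor tyrosine kinases and RAS, 2 rose and 2 fell with crowding, against 10.7% and 5.47% of all genes, and 0 rose and 1 fell with ETV4 KD, against 5.88% and 7.10%. At an unadjusted p below 0.05 in edgeR, 2 were higher and 5 lower with ETV4 KD. One of the genes that rose with crowding was SPRY3, described above. ERRFI1, an inhibitor of EGF receptor family kinases, fell in both. It went from 27.1 and 27.6 FPKM at low density to 16.6 and 14.6 FPKM in crowded cells, by 0.87 on the log2 scale, and from 34.2 and 35.0 FPKM in Ctrl to 23.0 and 21.8 FPKM in ETV4 KD, by 0.62. IL17RD, also known as SEF, a membrane inhibitor of FGF signalling, fell with crowding from 16.9 and 16.9 FPKM to 10.6 and 11.0 FPKM, by 0.70. With ETV4 KD it stood at 9.86 and 7.93 FPKM against 13.1 and 12.0 FPKM, a log2 fold change of -0.50 that lay just short of the minimum (edgeR, adjusted p = 0.0129). It was called without Ctrl replicate 2, at -0.56, and without ETV4 KD replicate 1, at -0.63. LRIG1, which promotes receptor degradation, rose with crowding from 21.7 and 20.3 FPKM to 35.9 and 34.5 FPKM, by 0.69, and its change with ETV4 KD was -0.03.

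The cascade from the FGF receptors to ERK and its RSK kinases was taken as 26 genes. With crowding 0 rose and 1 fell in edgeR, against 10.7% and 5.47% of all genes. With ETV4 KD 1 rose and 1 fell in edgeR, against 5.88% and 7.10%. DESeq2 gave the same counts. With limma on log2(FPKM + 0.5), 1 was higher and 1 lower with crowding, and 1 higher and 0 lower with ETV4 KD. In edgeR 5 were higher and 6 lower with crowding at the adjusted p alone, against 19.4% and 20.3%, and 4 were higher and 4 lower with ETV4 KD, against 10.6% and 10.9%. At an unadjusted p below 0.05, 7 were higher and 8 lower with crowding. FGFR1, a receptor for FGF2, stood at 66.6 and 68.3 FPKM at low density and at 96.8 and 91.0 FPKM in crowded cells, a log2 fold change of 0.43 ± 0.05 that passed the adjusted p (edgeR, 1.45e-06) but not the minimum fold. Its change with ETV4 KD was -0.01 ± 0.07. HRAS, which encodes a RAS GTPase and overlaps an antisense lncRNA, fell with crowding from 17.4 and 16.6 FPKM to 10.1 and 7.93 FPKM, by 0.97. With ETV4 KD it rose from 10.5 and 10.8 FPKM to 14.3 and 17.7 FPKM, by 0.57, a call that was lost in glmTreat and without ETV4 KD replicate 2, at 0.40. SOS1, a guanine nucleotide exchange factor for RAS, fell with ETV4 KD by 0.50, a call that was lost in 7 of 14 alternatives, among them without Ctrl replicate 1, at -0.38, and without ETV4 KD replicate 2, at -0.37.

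Of 13 genes of the FGF family tested, 4 rose and 2 fell with crowding, against 10.7% and 5.47% of all genes, and 1 rose and 3 fell with ETV4 KD, against 5.88% and 7.10%. FGF4, a ligand made by pluripotent cells, rose with crowding from 1.09 and 1.15 FPKM to 5.68 and 6.26 FPKM, by 2.36 on the log2 scale (edgeR, adjusted p = 1.57e-12). With ETV4 KD it fell from 0.766 and 0.729 FPKM to 0.220 and 0.337 FPKM, by 1.41 (edgeR, adjusted p = 0.0113), a call that was lost in glmTreat and in limma on log2(FPKM + 1), at -0.45. Its responses differed by 3.77 ± 0.25 (edgeR, adjusted p = 1.75e-06). FGF11, FGF12 and FGF13 encode intracellular FGF-like proteins that are not secreted ligands, and they made up all calls of the family with ETV4 KD other than FGF4. FGF11 rose in both experiments, by 0.90 and 0.65, and FGF13 fell in both, by 0.64 and 0.68. The fall of FGF13 with crowding was lost in 5 of 14 alternatives, among them without crowded replicate 1, at -0.49, and limma on log2(FPKM + 1), at -0.42. FGF12 fell with ETV4 KD by 0.77, a call that was lost in 2 of 14 alternatives. Over all of them the change lay between -0.79 and -0.48.

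A list of other transcripts known as responsive to ERK in various cells, ETV4 among them, was compared too. Of 19 tested with crowding, 1 rose and 10 fell, against 10.7% and 5.47% of all genes, and of 20 tested with ETV4 KD, 8 rose and 2 fell, against 5.88% and 7.10%. Their median log2 fold changes were -0.52 and 0.46. Of the members, DUSP6, DUSP5 and SPRY4 fell in both experiments, and DUSP4 and SPRED3 rose with ETV4 KD. In the test of the difference, 12 of 19 were lower with crowding, against 12.5% of all genes, and 3 were higher, against 15.0%. ETV4, the target of the hairpin, was 1 of these 3 and 1 of the 2 that fell with ETV4 KD. It also entered the median there, and the list was not counted without it.

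EGR1, an immediate-early zinc finger factor, was at 2.01 and 2.08 FPKM in Ctrl and at 31.9 and 23.3 FPKM in ETV4 KD. Both knockdown libraries were far above both Ctrl libraries, with a log2 fold change of 3.76 ± 0.14, a 13.5-fold higher level (edgeR, adjusted p = 4.65e-05). It also rose with crowding, by 1.36, from 1.13 and 1.20 FPKM to 3.18 and 3.04 FPKM. FOSL1, an AP-1 subunit, fell with crowding from 5.05 and 4.89 FPKM to 2.75 and 3.37 FPKM, by 0.76, and rose with ETV4 KD from 4.10 and 4.17 FPKM to 9.41 and 12.1 FPKM, by 1.40.

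PHLDA1, a target of receptor tyrosine kinase signalling, fell with crowding by 0.69, from 10.2 and 11.5 FPKM to 6.74 and 7.27 FPKM. It rose with ETV4 KD by 1.38, from 16.9 and 15.5 FPKM to 40.8 and 43.2 FPKM. FOS, an AP-1 subunit of the immediate-early response, rose with ETV4 KD by 1.65, from 1.70 and 1.93 FPKM to 5.06 and 6.32 FPKM. Its fall with crowding, by 0.52, was lost in 9 of 14 alternatives, among them the DESeq2 test, limma with each pseudocount, and without crowded replicate 2, at -0.39, or either small library. MAFF, a small MAF factor, fell with crowding by 0.85 and rose with ETV4 KD by 0.66, the latter call being lost in glmTreat, without Ctrl replicate 2, at 0.58, and without ETV4 KD replicate 2, at 0.44.

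IER3, an early response gene, and EPHA2, an ephrin receptor, moved with crowding and were not called with ETV4 KD. IER3 fell from 17.5 and 17.8 FPKM to 5.46 and 4.32 FPKM, by 1.91, and its change with ETV4 KD was -0.08. EPHA2 fell from 13.2 and 13.2 FPKM to 6.21 and 5.88 FPKM, by 1.18, and its change with ETV4 KD was -0.03. Both differed between the experiments, by -1.83 ± 0.20 for IER3 (edgeR, adjusted p = 4.32e-05) and by -1.15 ± 0.10 for EPHA2 (edgeR, adjusted p = 9.59e-06).

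**Figure D4:**
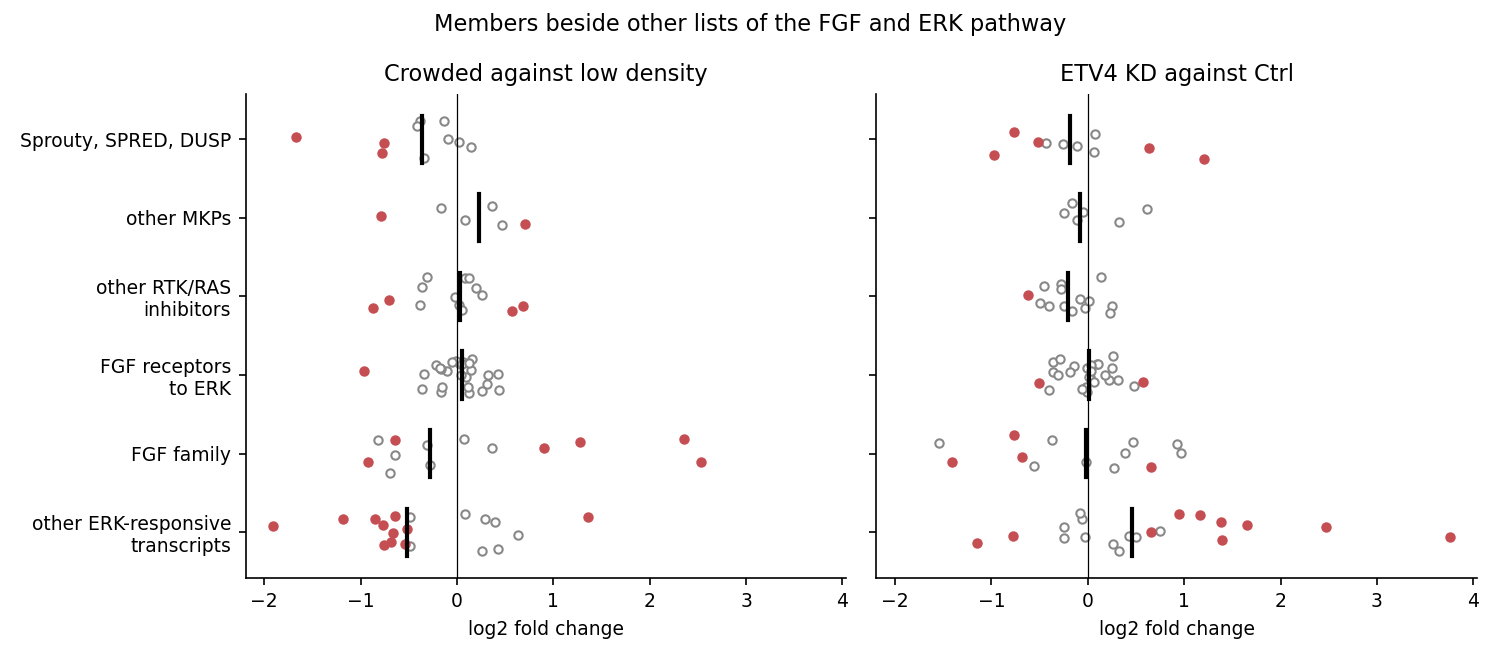
Log2 fold changes of the 10 members and of 5 other lists of the FGF and ERK pathway with crowding (left) and with ETV4 KD (right), each point a gene tested. Filled points are DEGs and black bars are list medians; the median of the ERK-responsive list is -0.52 on the left and 0.46 on the right, while the medians of the members are -0.36 and -0.19.

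The genes whose pattern over the 8 libraries was most like that of DUSP6 were found by the root mean square distance of log2(FPKM + 0.5), centred on the mean of each table, among 7857 genes with a mean of at least 5 FPKM in both tables. The nearest were TMEM63A, a membrane channel protein, at a distance of 0.134, IQSEC2, an exchange factor for ARF6, at 0.209, VSNL1, a neuronal calcium sensor, at 0.218, ITGB5, an integrin subunit, at 0.220, and METTL7A at 0.231. TMEM63A went from 19.6 and 20.6 FPKM at low density to 8.43 and 6.53 FPKM in crowded cells, and from 11.6 and 12.5 FPKM in Ctrl to 7.63 and 7.22 FPKM in ETV4 KD. Of the other members, SPRY4 ranked 17th, at 0.329, and DUSP5 33rd, at 0.367. SPRY2 followed at rank 567, DUSP7 at 1129, SPRY1 at 1394, SPRED1 at 2987 and SPRED2 at 3534. DUSP4 and SPRED3, the members that rose with ETV4 KD, lay below 5 FPKM and were not ranked. These ranks are a description of 8 libraries from 2 experiments and carry no test.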

How the data were processed

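Poly-A RNA of 8 H9 libraries was sequenced. According to the study's methods and the submitters' processing notes, the authors made libraries with a stranded kit, used Trimmomatic for trimming, HISAT2 2.1.0 for mapping to GRCh37 (hg19) and StringTie 2.1.3b for assembly; the counting tool and its strand setting are not given in the sources used here. The authors deposited raw read counts and FPKM per gene, 1 table per experiment, normalized separately. Their own fold changes, p-values and group means, and 16 further per-sample columns of normalized values, were not used.

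Groups came from the sample titles. The deposited counts were tested within each table in R 4.3.3 by the robust quasi-likelihood test of edgeR 4.0.16, after filterByExpr and TMM, and SE is the absolute log2 fold change over the square root of F. The difference of responses used the raw counts of all 8 libraries for genes in both tables. DESeq2 1.42.0 and limma 3.58.1 served for alternatives. The tests were tried on simulated counts. Between replicates the counts varied beyond sampling noise, with 5.51 to 21.9 for chi-square over its degrees of freedom, and counting error is small at this depth, so the replicates limit precision. The biological coefficient of variation was 6.83% for crowding and 9.93% for ETV4 KD. Named were all members, ETV4, FGFR1, in each other list up to 4 DEGs of at least 1 FPKM per comparison by size of change, and the 5 genes nearest to DUSP6; DUSP8, DUSP16, SPRY3 and the cell type markers were named after their values were seen. The members and lists were chosen with earlier results of these data known. Alternatives were DESeq2, its size factors, limma on log2 FPKM with pseudocounts of 0.1, 0.5 and 1, other count filters and fold minimums, glmTreat, a replicate block and each library left out. Spans are from GENCODE v44 lifted to GRCh37.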

Additional observations from a re-analysis of the deposited data

How the results depend on the processing

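No called change of a member turned direction in the alternatives run. The number of members that fell with crowding was 3, with 1 at an absolute log2 fold change over 1, 6 without a minimum fold and 3 to 4 when 1 library was left out. With ETV4 KD it was 3, with 1 in glmTreat, 0 at a log2 fold change over 1 and 2 to 3 when 1 library was left out. The 2 that rose with ETV4 KD became 1 in limma on log2(FPKM + 1), in glmTreat and at a log2 fold change over 1, and 1 to 2 when 1 library was left out. DEGs with crowding numbered 2851, with 1717 in limma on log2(FPKM + 0.5), 1839 in the same limma test over all genes, 1256 in limma with a pseudocount of 1, 1104 in glmTreat, 1135 over an absolute log2 fold change of 1, 7016 without a minimum fold and 2335 to 3392 when 1 library was left out. DEGs with ETV4 KD numbered 2321, with 1325 in limma on log2(FPKM + 1), 1502 in limma on log2(FPKM + 0.5) over all genes, 380 in glmTreat, 761 over an absolute log2 fold change of 1, 3847 without a minimum fold and 1590 to 3380 when 1 library was left out. glmTreat and the fold changes ask for a larger change by construction; for the others the cause was not tested. Values near 0 turned sign when 1 library was left out. The ranges were -0.27 to 0.065 for SPRY1, -0.15 to 0.21 for SPRED3 and -0.17 to 0.0086 for DNMT3B with crowding, -0.082 to 0.022 for EPHA2, -0.048 to 0.023 for FGFR1, -0.24 to 0.080 for IER3, -0.69 to 0.40 for DUSP8, -0.83 to 0.39 for HHEX, -1.20 to 0.56 for LHX2, -0.67 to 0.089 for SPRY3 and -0.11 to 0.044 for LRIG1 with ETV4 KD, and -0.12 to 0.19 for FGF13, -0.15 to 0.11 for NANOG, -0.0079 to 0.32 for SPRY1 and -0.19 to 0.19 for SPRY4 in the difference of responses. With at least 10 counts in every library the SPRY4 difference was 0.0042. Libraries with the same replicate number hardly deviated together (r = -0.04 for crowding and 0.09 for ETV4 KD over genes). This cannot show whether they shared a culture or a batch, which the labels do not give. With the replicate block there were 2874 and 2901 DEGs, against 2851 and 2321 without it. The counts of members stayed at 3, 3 and 2. Of the single genes named, DUSP2 with ETV4 KD was called with the block, at 0.62, and no other call changed. With ETV4 KD the calls of ERRFI1, LIN28A, FGF11 and FGF13 were each lost in 1 of 14 alternatives. The same held for FOSL1 and MAFF with crowding. Over all alternatives, 1917 values of single genes kept their direction and side of the thresholds, 92 lost a call, 22 gained one and 27 turned sign.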
